A study of Mus musculus with 18 samples.

Results

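Transcript levels of 10 immediate early genes were examined in mouse embryonic stem cells after DNA damage: Egr1, Egr2, Egr3, Ier2, Ier3, Ier5, Nr4a1, Zfp36, Klf6 and Klf10. The genes were chosen by name, each through the probe whose single gene symbol was that gene, and all 10 had 1 such probe among the 19935 genes measured. They were read on 18 arrays, 12 of R1E, an embryonic stem cell line of the mouse, and 6 of p53-/- mouse embryonic stem cells of background 129X1 x 129S1. All cells were grown in serum-containing medium with leukemia inhibitory factor. The R1E groups, with 4 arrays each, were mock treatment, 8 hours of adriamycin (doxorubicin, a topoisomerase II poison) at 0.5 µM, and ultraviolet light (UV) at 25 J/m2 with an 8 hour time point. The p53-/- groups, with 3 arrays each, were untreated cells and cells after 8 hours in 0.5 µM adriamycin, and a UV group of p53-/- cells was not analysed here. The labels do not say how the p53-/- line was made, whether it is 1 clone, or whether a group's arrays stand for separate cultures, so the p-values rest on a spread between arrays that may be technical.

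Immediate early genes are transcribed within minutes of a growth factor, stress or damage signal without new protein synthesis, mostly through MAP kinases that activate SRF with its ternary complex factors and CREB at their promoters. Their transcripts are short-lived, and many carry AU-rich elements that proteins such as ZFP36 bind to speed decay. EGR1, EGR2 and EGR3 are zinc finger transcription factors that share a GC-rich recognition site and are held in check by the NAB corepressors. NR4A1 is an orphan nuclear receptor, and KLF6 and KLF10 are Krüppel-like zinc finger factors. IER2 and IER5 are related nuclear proteins, of which IER5 takes part in heat shock factor control, and IER3 is a small stress protein that affects cell survival. In embryonic stem cells fibroblast growth factor signalling through ERK keeps part of this programme active in growing cells.

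The deposited log2 intensities had array medians of 5.30 to 5.61 over the 28815 probes with values on all arrays, and precision is limited by the number of arrays. Every other use of an array median here, for levels, centring or alignment, refers to the median of the 19935 genes, which is a different value. The p53-/- label was not checked on the transcript it names, which was not analysed here, and is taken from the submitters. All 10 embryonic stem cell markers lay above the array median in each group. The log2 of their summed linear intensities, the scale of all marker sums given here, was 14.67 to 14.73 in R1E mock, 14.13 to 14.26 after adriamycin and 14.45 to 14.49 after UV, and 14.09 to 14.18 in untreated and 14.09 to 14.14 in treated p53-/- cells. Fibroblast or feeder markers summed to 9.81 to 10.08 on the R1E arrays and to 11.09 to 11.64 on the p53-/- arrays, with 8 of 10 above the array median in the p53-/- groups and 5 of 10 in R1E mock. Of the other marker lists, primitive endoderm genes summed to 8.44 to 9.04 in R1E and 9.69 to 10.34 in p53-/- cells, mesoderm and neuroectoderm genes to 7.83 to 8.70 and 8.98 to 9.35, and macrophage or blood cell genes to 9.28 to 10.08 and 6.73 to 7.28. The last sum followed Cd68 alone, with group means of 9.22 to 9.91 in R1E and 5.58 to 6.18 in p53-/- cells. The other 3 measured genes of that list read lower in R1E mock than in untreated p53-/- cells, Ptprc at 3.90 and 4.23, Lyz2 at 3.58 and 4.11, and Csf1r at 4.38 and 4.72. Against the sums of their lists, Fbln1 (8.91 and 7.82) and Eomes (7.27 and 6.44) read higher in R1E mock. Sox1 did so only as deposited (6.99 and 6.94). Aligning the array medians lowers every R1E minus p53-/- difference equally, that of Nr4a1 from 2.48 to 2.15. This would leave Sox1 lower in R1E mock. The other measured fibroblast, mesoderm and neuroectoderm genes read lower in R1E mock, and 5 of 6 mesoderm and neuroectoderm genes were measured. The R1E and p53-/- arrays were normalized separately, so these levels are set side by side without a test, and the part of such cells in the results was not tested.

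Promoter sequence was at hand from RefSeq (GRCm38.p6) for 6 of the 10 genes, and the windows below are the 250 bases before a transcript start annotated for the 4 of these with the largest changes in R1E cells, shown 5′ to 3′ on the gene's strand so that the elements beside each change can be seen. They cover chr17:35821463-35821712 (plus strand, Ier3), chr15:101266596-101266845 (plus strand, Nr4a1), chr13:5861239-5861488 (plus strand, Klf6) and chr1:155099637-155099886 (minus strand, Ier5). The Nr4a1 window precedes a start inside the annotated gene span and not the outermost start of that gene, while the others precede the outermost start. Capitals mark matches to the motifs searched on both strands.
Ier3: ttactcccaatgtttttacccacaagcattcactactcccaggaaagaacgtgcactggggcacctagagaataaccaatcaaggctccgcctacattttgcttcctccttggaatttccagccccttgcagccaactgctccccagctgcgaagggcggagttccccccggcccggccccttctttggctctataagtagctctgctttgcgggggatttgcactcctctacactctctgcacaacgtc
Nr4a1: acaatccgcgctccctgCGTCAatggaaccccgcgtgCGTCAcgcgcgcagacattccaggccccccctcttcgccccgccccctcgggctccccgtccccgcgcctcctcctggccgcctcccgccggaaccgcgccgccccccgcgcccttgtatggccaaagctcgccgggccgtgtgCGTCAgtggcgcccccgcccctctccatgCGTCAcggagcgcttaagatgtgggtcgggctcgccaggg
Klf6: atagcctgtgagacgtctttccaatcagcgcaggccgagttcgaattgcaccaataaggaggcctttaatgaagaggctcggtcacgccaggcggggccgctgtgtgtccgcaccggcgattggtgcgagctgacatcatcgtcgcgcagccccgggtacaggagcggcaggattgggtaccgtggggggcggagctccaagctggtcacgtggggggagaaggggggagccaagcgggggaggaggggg
Ier5: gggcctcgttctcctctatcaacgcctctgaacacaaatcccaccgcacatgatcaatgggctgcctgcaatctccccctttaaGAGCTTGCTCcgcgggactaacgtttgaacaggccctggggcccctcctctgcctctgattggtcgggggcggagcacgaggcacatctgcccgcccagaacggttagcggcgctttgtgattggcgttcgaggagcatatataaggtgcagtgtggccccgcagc

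The motifs were the CArG box bound by SRF, the cyclic AMP response element TGACGTCA and its half-site TGACG, the AP-1 site TGANTCA, the EGR site GCGTGGGCG, the TATA box TATAAA, the p53 half-site and the ETS site CCGGAAGT. The Nr4a1 window held 4 half-sites of the cyclic AMP response element, each read as CGTCA on the printed strand and none part of a full element. A window with at least 1 such half-site made up 17.8% of all 32851 promoter windows. Such half-sites also occurred in 3 of the 5 Egr2 windows, at most 2 in a window, and these windows overlap and share them. A p53 half-site stood 166 to 157 bases before the Ier5 start, and 7.1% of windows held one. The CArG box occurred in 1.5% of windows and in those of Zfp36 (CCATAAAAGG, 58 to 49 bases before the start) and Egr2, where 4 of 5 annotated starts had 1, read as CCATATATGG or CCTTTTTTGG. The Egr2 windows with CCATATATGG overlap and share the same site, so they are not separate matches. In the windows of Ier3 and Klf6 none of these letters occurred. A match describes the sequence and is not evidence of binding. The absence of a match concerns these windows and these letters alone, and variants such as a TATA box other than TATAAA were not searched. By RefSeq gene span the 10 genes were short, at a median of 4.53 kb against 17.74 kb over all genes, and 9 of them lay under 10 kb, the longest being Nr4a1 at 20.89 kb.

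The first question was how the genes responded to each agent in R1E cells 8 hours later. No earlier time was read, so changes that had come and gone by then are not seen. After UV 3 of the 10 rose and 4 fell, and after adriamycin 3 rose and 5 fell, at an adjusted p below 0.05 in limma, a linear model with moderated variances. Over all genes tested 43.9% were called after UV (22.6% higher, 21.2% lower) and 47.7% after adriamycin (22.1% higher, 25.6% lower), so that a call alone was common. The treated arrays lay wholly above the mock arrays for 3 of the 10 genes after each agent, beside 20.6% of all genes after UV and 20.8% after adriamycin, and wholly below them for 3 after UV and 5 after adriamycin, beside 20.2% and 24.8%. Both comparisons use the same 4 mock arrays. Nr4a1, Ier5 and Egr1 rose after each agent, Ier3, Zfp36, Klf6 and Klf10 fell after each, Ier2 fell after adriamycin, and Egr2 and Egr3 passed the test after neither. The median change of the 10 genes was 0.02 after UV and -0.30 after adriamycin on the log2 scale, beside 0.03 and -0.02 over all genes. With each array centred on its median, every change shifted by -0.077 after UV and -0.125 after adriamycin, and the share of all calls that were higher moved from 51.6% to 35.3% and from 46.3% to 25.4%.

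**Figure D1:**
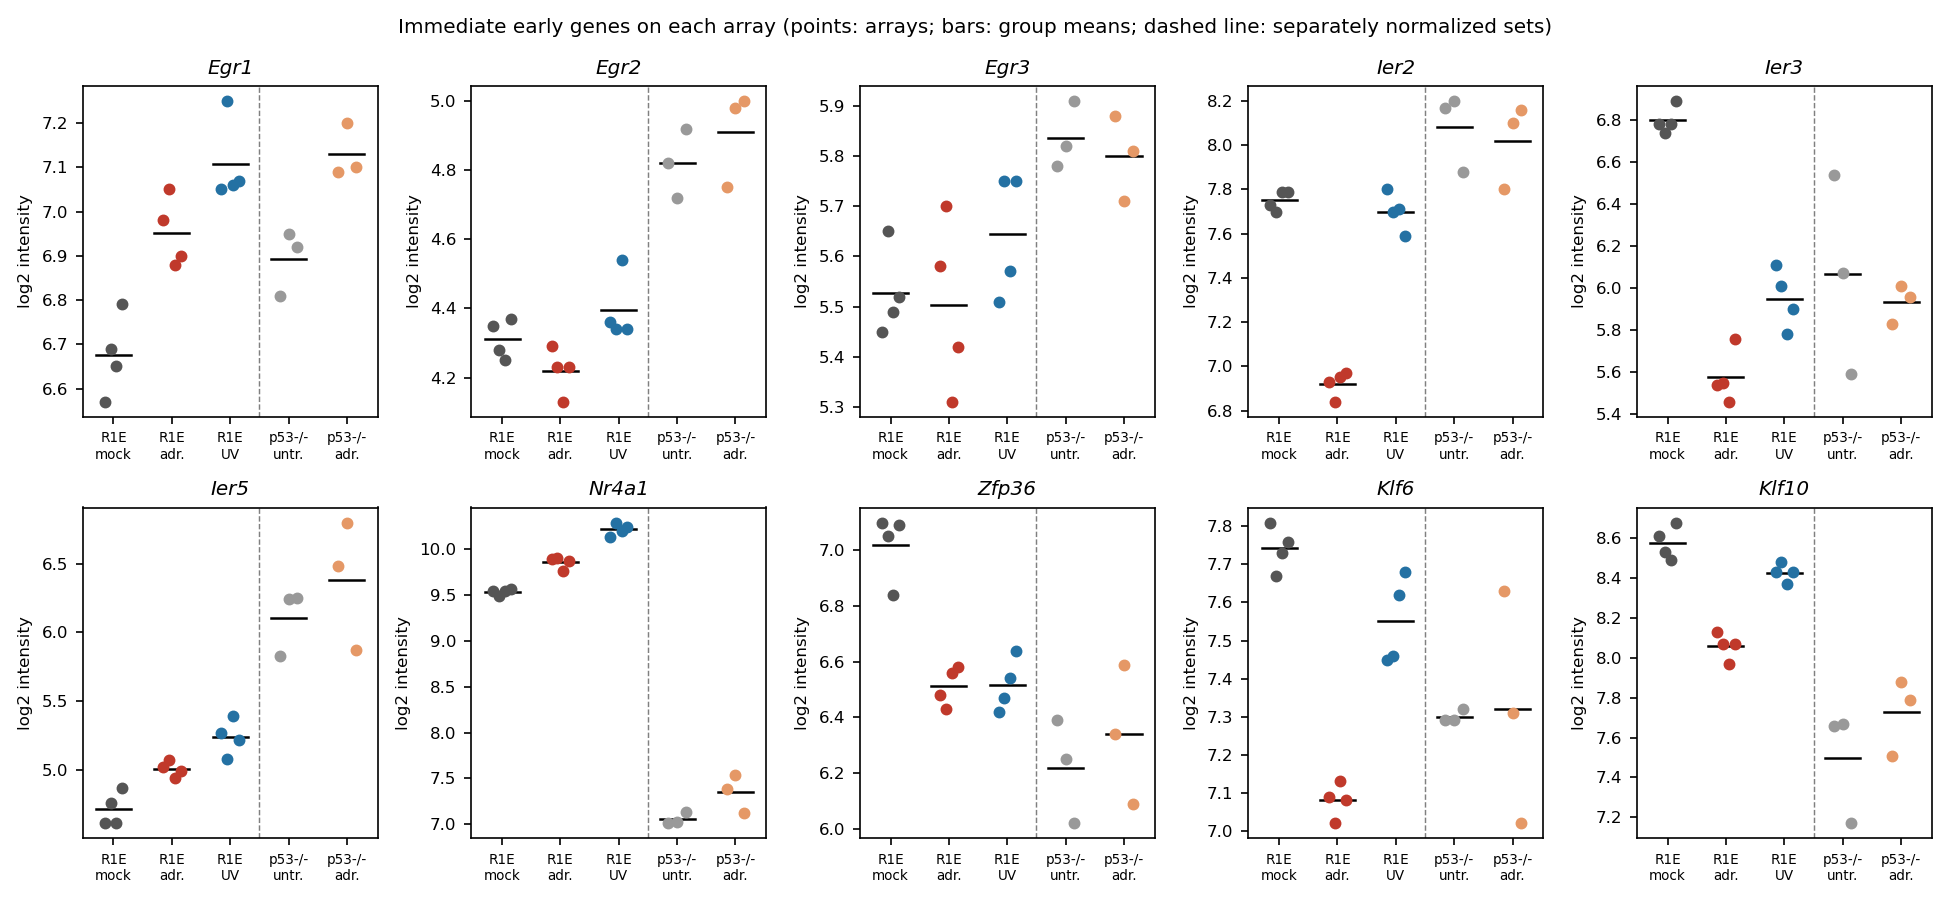
Log2 intensity of each of the 10 genes on every array, with 1 panel per gene, 1 point per array and a bar at the group mean, and the separately normalized R1E and p53-/- sets split by a dashed line. Each panel has its own scale. Ier2 arrays after adriamycin in R1E sit at 6.84 to 6.97, below all mock and UV arrays, while in p53-/- cells the treated and untreated arrays overlap.

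Among the EGR factors only Egr1 rose after UV or adriamycin, a growth and stress responsive factor that also regulates p53 pathway genes. Egr1 read 6.57, 6.69, 6.65 and 6.79 on the mock arrays, 6.98, 7.05, 6.88 and 6.90 after adriamycin, and 7.05, 7.25, 7.06 and 7.07 after UV. No treated array overlapped the mock range, and the highest UV array, at 7.25, stood apart from the other UV arrays. Egr1 rose 1.35-fold after UV (log2 change 0.43 ± 0.06 SE, limma adjusted p = 2.45e-05) and 1.21-fold after adriamycin (0.28 ± 0.06, limma adjusted p = 0.00132). Egr2, a hindbrain and myelination factor, lay between 4.13 and 4.54 on all R1E arrays, and Egr3, its relative in muscle spindle and immune development, between 5.31 and 5.75. Both read below the array median of the 19935 genes on every R1E array. Egr2 had log2 changes of 0.08 (95% confidence interval -0.03 to 0.20) after UV and -0.09 (-0.21 to 0.03) after adriamycin, and Egr3 of 0.12 (-0.06 to 0.29) and -0.03 (-0.20 to 0.14). With arrays centred on their medians Egr2 was called lower after adriamycin (log2 change -0.21, limma adjusted p = 0.0031).

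Nr4a1, whose window with the half-sites is printed above, had the largest rise of the 10 genes after UV. Its mock arrays read 9.54, 9.49, 9.54 and 9.57, its adriamycin arrays 9.89, 9.90, 9.76 and 9.87, and its UV arrays 10.13, 10.29, 10.20 and 10.24. The 3 groups did not overlap, in the order mock, adriamycin, UV. Nr4a1 rose 1.61-fold after UV (log2 change 0.68 ± 0.05 SE, limma adjusted p = 1.29e-08) and 1.25-fold after adriamycin (0.32 ± 0.05, limma adjusted p = 4.39e-05). Ier5 followed the same order, with mock arrays at 4.61, 4.76, 4.61 and 4.87, adriamycin arrays at 5.02, 5.07, 4.94 and 4.99, and UV arrays at 5.27, 5.08, 5.39 and 5.22. Its groups did not overlap either, although the highest adriamycin array, at 5.07, lay just below the lowest UV array, at 5.08. The R1E arrays of Ier5 all lay below the array median. Ier5 rose 1.44-fold after UV (0.53 ± 0.07, limma adjusted p = 1.17e-05) and 1.22-fold after adriamycin (0.29 ± 0.07, limma adjusted p = 0.00253). The adriamycin call for Ier5 ended with arrays centred on their medians (limma adjusted p = 0.0521).

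The Krüppel-like factors fell, more after adriamycin than after UV. Klf6, a tumour suppressor and injury-response factor, read 7.81, 7.67, 7.73 and 7.76 on mock arrays, 7.09, 7.02, 7.13 and 7.08 after adriamycin, and 7.45, 7.46, 7.62 and 7.68 after UV. Adriamycin arrays lay below all others, while the highest UV array passed the lowest mock array. Klf6 fell 1.58-fold after adriamycin (log2 change -0.66 ± 0.06 SE, limma adjusted p = 6.46e-08) and 1.14-fold after UV (-0.19 ± 0.06, limma adjusted p = 0.0128). Klf10, a TGF-beta inducible repressor, read 8.61, 8.53, 8.49 and 8.68 in mock, 8.13, 8.07, 7.97 and 8.07 after adriamycin, and 8.43, 8.48, 8.37 and 8.43 after UV. No treated array reached the mock range, although the highest UV array, at 8.48, lay just below the lowest mock array, at 8.49. The fall of Klf10 was 1.43-fold after adriamycin (-0.51 ± 0.05, limma adjusted p = 4.46e-07). After UV it was 1.11-fold (-0.15 ± 0.05, limma adjusted p = 0.0331), a call that ended with quantile normalization (limma adjusted p = 0.19) and when mock replicate 1 or 4 or UV replicate 1, 3 or 4 was left out (limma adjusted p from 0.0547 to 0.103).

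Ier3 had the largest change of the 10 genes after either agent, and it was a fall. Its mock arrays read 6.78, 6.74, 6.78 and 6.89, its adriamycin arrays 5.54, 5.55, 5.46 and 5.76, and its UV arrays 6.11, 6.01, 5.78 and 5.90. All treated arrays lay below all mock arrays, and all adriamycin arrays below all UV arrays. Its 4 adriamycin arrays and 2 of its 4 UV arrays read below the array median, and no mock array did. Ier3 fell 2.33-fold after adriamycin (log2 change -1.22 ± 0.07 SE, limma adjusted p = 6.5e-10) and 1.80-fold after UV (-0.85 ± 0.07, limma adjusted p = 9.85e-08). Ier2 separated the agents most: mock arrays read 7.73, 7.70, 7.79 and 7.79, UV arrays 7.80, 7.70, 7.71 and 7.59, and adriamycin arrays 6.93, 6.84, 6.95 and 6.97. The UV arrays of Ier2 overlapped the mock arrays and the adriamycin arrays overlapped neither. Ier2 fell 1.78-fold after adriamycin (-0.83 ± 0.05, limma adjusted p = 1.26e-09), against a log2 change of -0.05 after UV (95% confidence interval -0.17 to 0.06, limma adjusted p = 0.455). With arrays centred on their medians the UV change of Ier2 was -0.13 and called (limma adjusted p = 0.0489).

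Zfp36, which encodes the decay factor tristetraprolin, fell after both agents, by near-equal amounts. It read 7.10, 7.05, 6.84 and 7.09 on mock arrays, 6.48, 6.43, 6.56 and 6.58 after adriamycin, and 6.42, 6.47, 6.54 and 6.64 after UV. Both treated groups lay below the mock range and overlapped each other. Its log2 change was -0.50 ± 0.07 SE after UV (1.42-fold, limma adjusted p = 9.9e-06) and -0.51 ± 0.07 after adriamycin (1.42-fold, limma adjusted p = 6.73e-06).

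**Figure D2:**
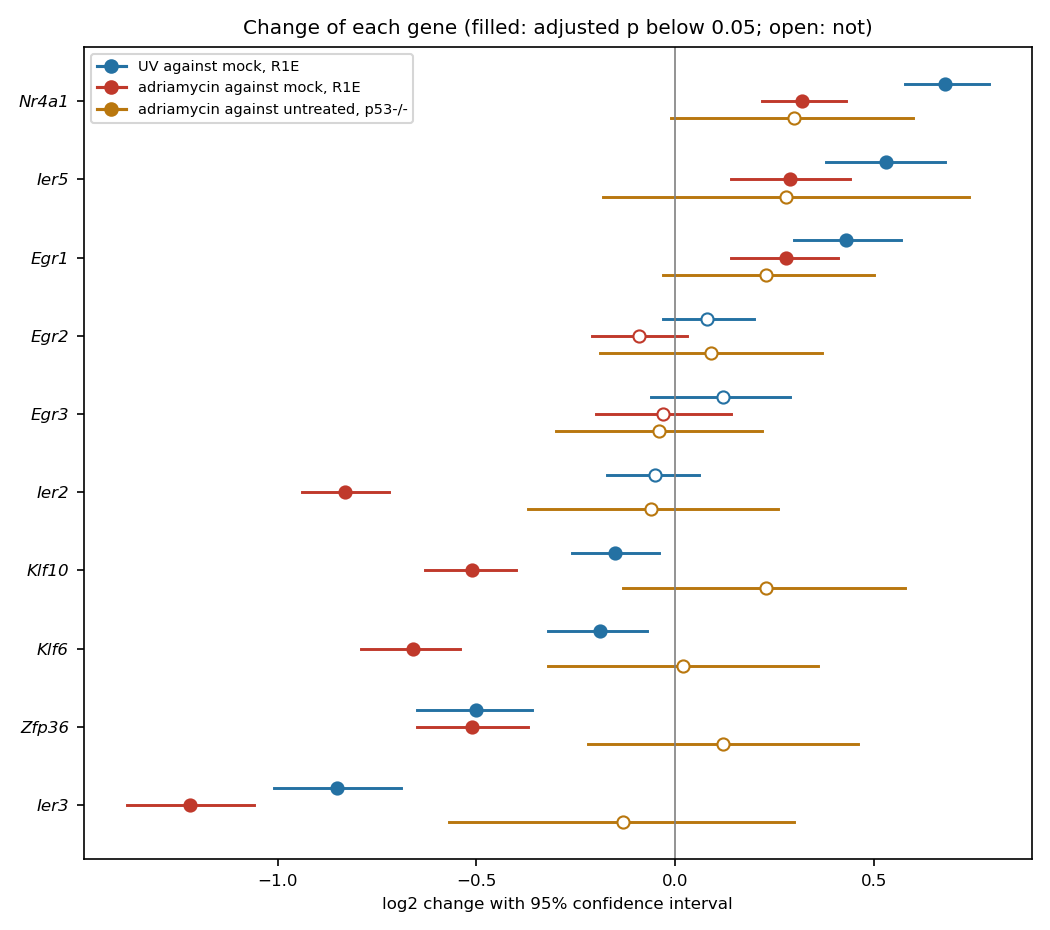
Log2 change of each gene with its 95% confidence interval for UV against mock and adriamycin against mock in R1E and for adriamycin against untreated in p53-/- cells, with filled points where the adjusted p was below 0.05. Nr4a1, Ier5 and Egr1 lie above 0 and Ier3, Zfp36, Klf6 and Klf10 below 0 after both agents in R1E. In p53-/- cells all 10 intervals include 0.

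UV and adriamycin were then compared directly in R1E cells, a contrast in which the mock arrays enter only through the estimate of spread. Of the 10 genes 7 were higher after UV than after adriamycin and none was lower, where 42.0% of all genes were called, 22.2% higher and 19.8% lower (52.8% of the calls higher, or 65.3% with each array centred on its median). At an unadjusted p below 0.05 in limma the count was 8, and for 8 genes all UV arrays lay above all adriamycin arrays, as for 19.9% of all genes (18.4% the other way). Their median was 0.30 on the log2 scale, beside 0.04 over all genes. Ier2 differed most, at 1.71-fold (log2 difference 0.78 ± 0.05 SE, limma adjusted p = 8.84e-09), followed by Klf6 (1.38-fold, 0.47 ± 0.06, limma adjusted p = 7.15e-06). Ier3, Klf10 and Nr4a1 differed by 0.38 ± 0.07, 0.37 ± 0.05 and 0.36 ± 0.05 on the log2 scale, with limma adjusted p of 0.000641, 3.52e-05 and 2.29e-05. For Ier3, Klf6 and Klf10 this was a smaller fall after UV, and for Nr4a1 a larger rise.

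The remaining differences between the agents were small. Ier5 was higher after UV by 0.24 ± 0.07 (limma adjusted p = 0.0129), a call that ended without UV replicate 3 (limma adjusted p = 0.0518). Egr2 was higher by 0.17 ± 0.06 (limma adjusted p = 0.0202), although it passed the test against mock after neither agent. That call ended with quantile normalization (limma adjusted p = 0.0593), without adriamycin replicate 3 (0.0689) and without UV replicate 3 (0.0799). Egr1, at 0.16 ± 0.06, narrowly missed the threshold (limma adjusted p = 0.0561) with no overlap of the groups, and passed it with quantile normalization, centring, dim genes left out, a replicate block, or without mock replicate 4 or adriamycin replicate 2 (limma adjusted p from 0.013 to 0.0497). For Egr3 the difference was 0.14 (95% confidence interval -0.03 to 0.32), called without adriamycin replicate 2 (limma adjusted p = 0.0431). For Zfp36 it was 0.00 (95% confidence interval -0.14 to 0.14), an interval that leaves room for differences of up to 0.14 in either direction.

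The next comparison asked whether adriamycin changed these genes in p53-/- cells. None of the 10 passed the test in limma, and none had an unadjusted p below 0.05. Over all genes 0.0953% were called, 3 higher (0.015%) and 16 lower (0.0803%), and a change had a median standard error of 0.140 there against 0.063 in R1E. The share of calls that were higher was 15.8%, or 4.2% with each array centred on its median. The median change of the 10 genes was 0.11, beside 0.06 over all genes. The count of all genes called rested on single arrays, with 135 higher and 307 lower without untreated replicate 3, and none of the 10 genes was called in that setting either.

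The genes that rose in R1E cells had values of similar size in p53-/- cells. Egr1 read 6.81, 6.95 and 6.92 untreated and 7.09, 7.20 and 7.10 after adriamycin, with every treated array above every untreated one. Its log2 change was 0.23 ± 0.12 SE (95% confidence interval -0.03 to 0.50, limma adjusted p = 0.484), and 12.3% of all genes had all treated arrays above all untreated arrays and 5.22% all below. Nr4a1 read 7.01, 7.02 and 7.13 untreated and 7.38, 7.54 and 7.12 after adriamycin. Of these only the third treated array fell within the untreated range, and the log2 change was 0.30 ± 0.14 (-0.01 to 0.60, limma adjusted p = 0.441). Ier5 spread widely, from 5.83, 6.24 and 6.25 untreated to 6.48, 6.80 and 5.87 treated, a log2 change of 0.28 ± 0.21 (-0.18 to 0.74, limma adjusted p = 0.655).

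The genes that fell in R1E cells had values near or above 0 in p53-/- cells. Ier2 read 8.17, 8.20 and 7.88 untreated and 7.80, 8.10 and 8.16 treated, a log2 change of -0.06 ± 0.15 SE. Ier3 had untreated arrays at 6.54, 6.07 and 5.59, a wider spread than its treated arrays at 5.83, 6.01 and 5.96, and a change of -0.13 ± 0.20. In both genes the treated arrays overlapped the untreated ones. Klf6 read 7.29, 7.29 and 7.32 untreated and 7.63, 7.31 and 7.02 treated (0.02 ± 0.16), and Klf10 7.66, 7.67 and 7.17 untreated and 7.51, 7.88 and 7.79 treated (0.23 ± 0.16). Zfp36 read 6.39, 6.25 and 6.02 untreated and 6.34, 6.59 and 6.09 treated (0.12 ± 0.16). All 3 overlapped between groups. Egr2 lay between 4.72 and 5.0 and Egr3 between 5.71 and 5.91 on the p53-/- arrays, with changes of 0.09 ± 0.13 and -0.04 ± 0.12. The fibroblast marker sum was 11.36 to 11.64 untreated and 11.09 to 11.44 treated, and its part in these values was not tested.

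Whether the adriamycin effect differed between R1E and p53-/- cells was tested on the difference of the limma effects, with each set keeping its own spread. The difference was called for 5 of the 10 genes, all with R1E below p53-/-, where 21.7% of all genes were called, 11.4% in that direction and 10.4% in the other. These 5 were the genes that fell after adriamycin in R1E. Of all 5110 genes lower after adriamycin in R1E, 40.7% were also called for the difference in that direction, and the R1E arrays enter both tests. Ier3 had a difference of -1.09 ± 0.21 SE (95% confidence interval -1.54 to -0.64, adjusted p = 0.00142), and Ier2 of -0.77 ± 0.15 (-1.10 to -0.44, adjusted p = 0.00175). Klf10, at -0.74 ± 0.17 (adjusted p = 0.00568), and Klf6, at -0.69 ± 0.17 (adjusted p = 0.00701), followed. For Zfp36 the difference was -0.63 ± 0.17 (adjusted p = 0.0132), and this call ended without p53-/- adriamycin replicate 2 (adjusted p = 0.0717).

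For the genes that rose in R1E the difference was near 0, with intervals that leave room for effects of the size seen in R1E. Nr4a1 had a difference of 0.03 (95% confidence interval -0.29 to 0.34), Egr1 of 0.04 (-0.24 to 0.33) and Ier5 of 0.01 (-0.46 to 0.49). Of all 4397 genes higher after adriamycin in R1E, 45.2% were called for the difference with R1E above p53-/-. None of these 3 genes was called, with adjusted p from 0.875 to 0.98. Reference targets of p53 in the same tests, Mdm2, its ubiquitin ligase, and Ccng1, a cyclin, had differences of 1.70 ± 0.15 (adjusted p = 7.45e-07) and 0.68 ± 0.14 (adjusted p = 0.00259). Egr2 had a difference of -0.18 (-0.48 to 0.12) and Egr3 of 0.01 (-0.29 to 0.31). This difference holds genotype, cell line, array set and normalization tool together, which cannot be told apart, and UV was not compared between the lines.

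**Figure D3:**
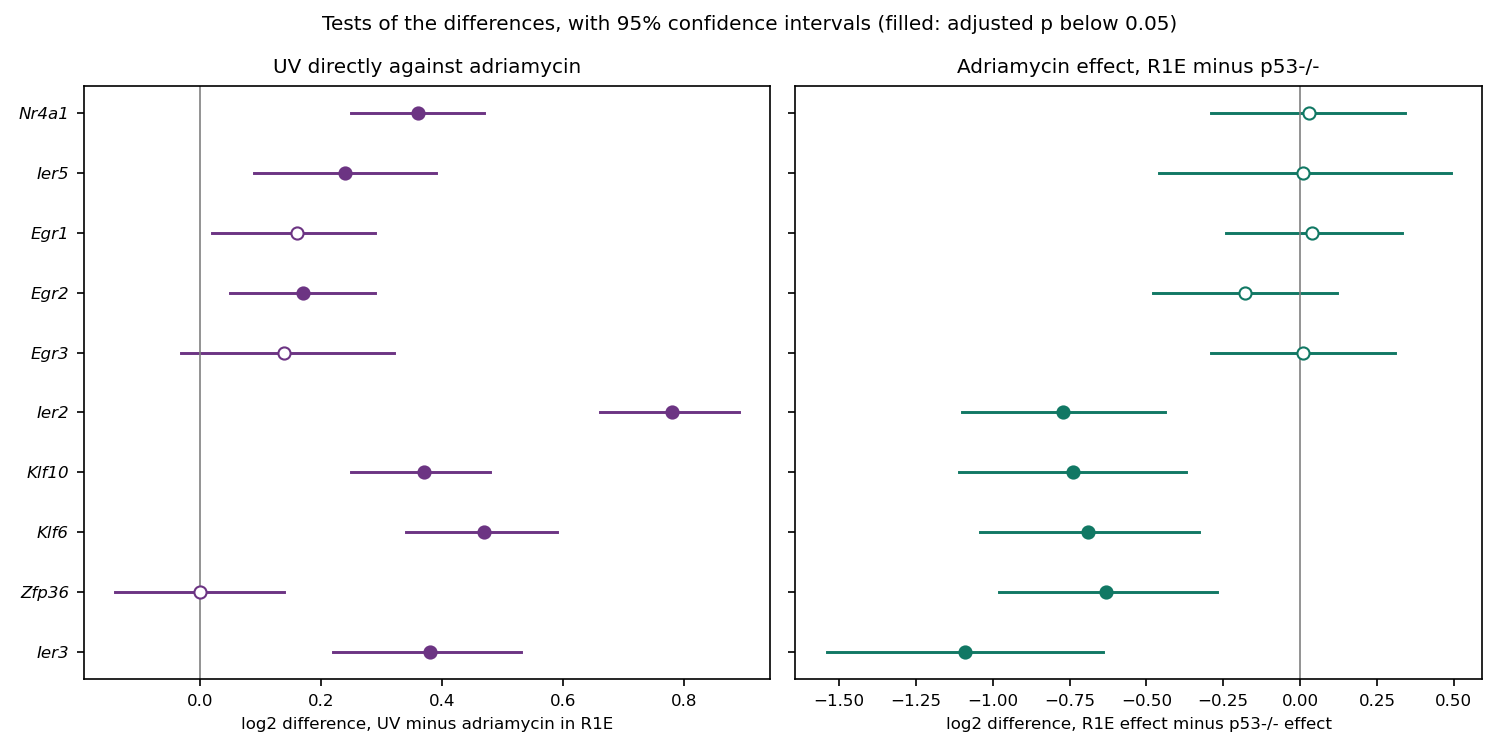
Left, log2 difference between UV and adriamycin in R1E, and right, adriamycin effect in R1E minus that in p53-/- cells, each with its 95% confidence interval and filled where the adjusted p was below 0.05. On the right the 5 genes Ier2, Klf10, Klf6, Zfp36 and Ier3 lie at -0.63 or lower, and Nr4a1, Ier5 and Egr1 lie between 0.01 and 0.04.

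Starting levels could be set beside each other across the lines only after the array medians were aligned, and had no test. Nr4a1 stood furthest apart, at a mean of 9.53 in R1E mock and 7.05 in untreated p53-/- cells, a log2 gap of 2.15 after alignment and 2.48 as deposited. Ier5 went the other way, at 4.71 and 6.11, a gap of -1.72 after alignment. For Klf10 the aligned gap was 0.75, for Zfp36 0.47, for Ier3 0.41 and for Klf6 0.12, each higher in R1E, and for Egr1, Egr2, Egr3 and Ier2 it was -0.55 to -0.83. These gaps cannot be told apart from line, set and processing tool.

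Other immediate early genes and the pathway that drives them were read from 7 gene lists. Over all genes 22.6% rose and 21.2% fell after UV, and 22.1% rose and 25.6% fell after adriamycin. Between the agents 22.2% were higher after UV and 19.8% lower, and between the lines 10.4% were higher and 11.4% lower in R1E. In p53-/- cells 0.0953% were called, so that a list with no call there was the usual outcome. In the list of AP-1 and other immediate early transcription factors 7 of 15 rose and 2 fell after UV, and 5 rose and 7 fell after adriamycin, with median changes of 0.16 and -0.02. Directly compared, 8 of the 15 were higher after UV and none lower, led by the stress factor Atf3 (log2 difference 0.99 ± 0.08 SE), Myc (0.97 ± 0.05) and Csrnp1 (0.60 ± 0.08). Fosl1, a FOS relative, rose 3.83-fold after UV and 3.89-fold after adriamycin, and Fos rose 1.84-fold after UV and 2.09-fold after adriamycin. Jun rose 2.51-fold after UV and 1.9-fold after adriamycin. None of the 15 was called in p53-/- cells, and for the difference between the lines 3 were higher and 6 lower in R1E, among them Fosl1 at 1.55 ± 0.20, Csrnp1 at -1.22 ± 0.15 and Jun at 1.07 ± 0.16.

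Immediate early genes that encode no DNA-binding factor moved in both directions. After UV 12 of 23 measured rose and 5 fell, and after adriamycin 10 rose and 11 fell, with medians of 0.17 and -0.01. The kinase gene Plk2 and the antiproliferative gene Btg2, both known p53 targets and also on the reference list, led the rises after each agent, at 6.39-fold and 5.34-fold after UV and 7.77-fold and 5.48-fold after adriamycin. Phlda1 rose 2.20-fold after UV and 2.06-fold after adriamycin. Gadd45b, a stress signalling gene, fell 2.33-fold after adriamycin and was higher after UV than after adriamycin by 0.89 ± 0.11 SE, as were Plaur (1.33 ± 0.07) and Trib1 (0.93 ± 0.06). In all 12 of 23 were higher after UV and 3 lower. None was called in p53-/- cells, and the difference between the lines was called higher in R1E for 5 and lower for 9, Gadd45b being at -1.84 ± 0.19.

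The paralogues of the 10 genes, mostly other Krüppel-like factors, fell more often after adriamycin than they rose. After adriamycin 13 of 21 fell and 1 rose (median -0.21), and after UV 7 fell and 4 rose (median -0.05). Klf8 fell 2.81-fold after adriamycin and 1.79-fold after UV, Klf12 1.92-fold and 2.82-fold, and Klf13 1.77-fold after adriamycin. Ier5l, the paralogue of Ier5, rose 1.5-fold after UV. Compared directly 14 of 21 were higher after UV and 2 lower, with Klf8 at 0.65 ± 0.07 SE, Klf13 at 0.60 ± 0.07 and, against the others, Klf7 at -0.73 ± 0.06. With dim genes left out 2 rose after UV and 2 after adriamycin. For the difference between the lines 6 were lower in R1E and none higher, among them Klf8 at -1.51 ± 0.15, Klf15 at -0.83 ± 0.17 and Klf2, a naive pluripotency factor, at -0.78 ± 0.18, and none was called in p53-/- cells.

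Genes of the pathway upstream moved in both directions. Of the 13 genes for SRF, its partners, CREB family factors, coactivators and NAB corepressors, 2 rose and 7 fell after UV and 3 rose and 8 fell after adriamycin (medians -0.17 and -0.25). Srf itself rose 1.25-fold after UV, Elk3, a ternary complex factor, fell 1.47-fold after UV, Nab1 fell 1.36-fold after each agent, and Nab2 and Creb1 fell 1.33-fold and 1.32-fold after adriamycin. Between the agents 7 were higher and 5 lower after UV, with Elk4 at 0.54 ± 0.08 SE and the SRF coactivators Mrtfb and Mrtfa at -0.58 ± 0.06 and -0.52 ± 0.07. None was called in p53-/- cells, and for the difference between the lines 2 were higher in R1E, Mrtfa (0.44 ± 0.14) and Mrtfb (0.43 ± 0.13), and Nab2 was lower (-0.50 ± 0.15). In the MAP kinase cascade 16 of 25 listed genes were measured, of which 5 rose and 8 fell after UV and 7 rose and 8 fell after adriamycin (medians -0.14 and -0.15). Map2k6 and the kinases Rps6ka3 and Rps6ka5 fell 2.68-fold, 1.91-fold and 1.91-fold after UV, while after adriamycin Mapk11 fell 2.03-fold and Map2k4 and Mapk9 rose 1.79-fold and 1.68-fold. Directly, 3 of the 16 were higher after UV and 8 lower, with Rps6ka5 at -1.10 ± 0.06, Map2k6 at -0.99 ± 0.06 and Map2k4 at -0.83 ± 0.05. None was called in p53-/- cells, and for the difference between the lines 3 were higher and 3 lower in R1E, led by Map2k4 (1.21 ± 0.15), Mapk11 (-1.09 ± 0.15) and Mapk9 (0.71 ± 0.20).

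The ERK output and feedback genes, which embryonic stem cells express under fibroblast growth factor signalling, fell together after adriamycin. All 11 fell after adriamycin (median -0.88) and 6 fell and 1 rose after UV (median -0.21). Etv1 fell 4.24-fold after adriamycin and 3.40-fold after UV, and the feedback inhibitors Spry4 and Spry2 fell 3.90-fold and 2.96-fold after adriamycin. Spred1 and Spred2 fell 1.48-fold and 1.41-fold after UV, and 1.71-fold and 1.43-fold after adriamycin. Between the agents 10 of 11 were higher after UV and none lower, with Spry4 at 2.03 ± 0.06 SE, Spry2 at 1.19 ± 0.05 and Dusp4 at 1.03 ± 0.09. None was called in p53-/- cells, and for the difference between the lines 8 were lower in R1E and none higher, led by Etv1 (-2.09 ± 0.16), Spry4 (-1.73 ± 0.16) and Dusp6 (-1.34 ± 0.14). The 10 p53 target reference genes, by contrast, all rose after both agents (medians 1.19 after UV and 1.57 after adriamycin), with Plk2, Btg2 and Perp, at 4.13-fold, first after UV and Fas, at 9.07-fold, first after adriamycin. Of these 8 were lower after UV than after adriamycin, Fas by -1.35 ± 0.09, Eda2r by -0.76 ± 0.05 and Mdm2 by -0.59 ± 0.05. None was called in p53-/- cells (median change 0.22), and all 10 differed between the lines, R1E being higher. These lists were chosen with results of these data known and are no independent evidence of their directions.

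**Figure D4:**
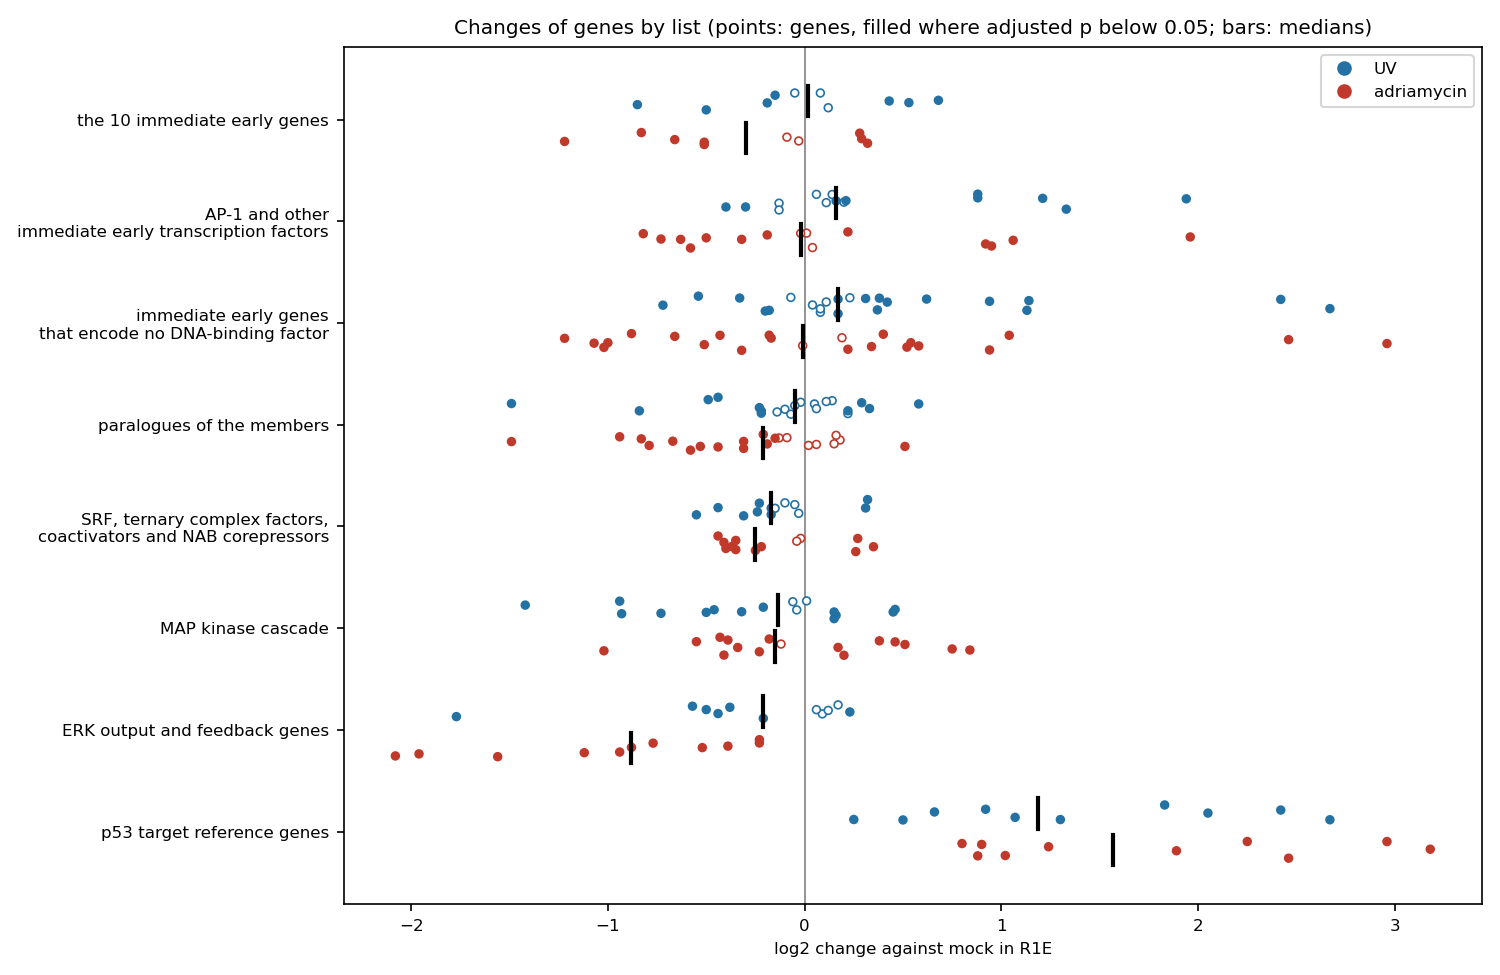
Log2 change against mock in R1E for the 10 genes and 7 gene lists, with UV in blue and adriamycin in red, 1 point per gene, filled where the adjusted p was below 0.05, and a bar at each median. The 11 ERK output and feedback genes lie below 0 after adriamycin, and the 10 p53 target genes above 0 after both agents.

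The genes whose pattern lay nearest to a gene with a change of at least 1 on the log2 scale were sought over the 8 treated R1E arrays, which applied to Ier3 alone. The measure was the root mean square gap between deviations from the mock mean. Cyp2s1, a cytochrome P450, was nearest at 0.116, with changes of -1.30 after adriamycin and -0.80 after UV, followed by Kank4 (gap 0.117, changes -1.23 and -0.80) and Gfod1 (gap 0.120, changes -1.14 and -0.82). In p53-/- cells, which the measure did not use, their changes after adriamycin were 0.43, -0.16 and 0.32, beside -0.13 for Ier3.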

How the data were processed

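Total RNA was hybridised to whole-transcript arrays, and the authors deposited normalized log2 intensities, 1 for each probe on each array. Affymetrix Expression Console 1.1 was used for R1E and RMA in Partek 6.4 for p53-/-, per the submitters' processing notes. Neither the algorithm of the former nor a genome build is given in the sources used here. Levels were tested within each separately normalized set, and across sets only the difference of effects was.

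Of 28853 probes, 28815 had values on all arrays and 21780 carried 1 gene symbol. The probe with the highest mean was used per gene, giving 19935 genes. Groups were taken from the labels. limma 3.58.1 (R 4.3.3) was fitted with lmFit and eBayes on the deposited log2 values, over 12 R1E arrays or 6 p53-/- arrays, with Benjamini-Hochberg adjustment over all genes and calls below 0.05. The difference of adriamycin effects was divided by the root of the summed squared moderated standard errors, with Satterthwaite degrees of freedom. An earlier fit with a shared spread is given as an alternative, since the p53-/- arrays spread more. The scripts were tested on simulated arrays with known changes, where this difference test made more false calls than its nominal rate, and a stricter version was added after seeing the data.

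The 10 genes and all gene lists were chosen with earlier results of these data known. All 10 genes were named in each comparison, with up to 3 called genes of largest change per list, the reference genes Mdm2 and Ccng1, and the promoters of the 4 genes with the largest changes for which sequence was at hand. Lists of embryonic stem cell, fibroblast, primitive endoderm, mesoderm and neuroectoderm, and blood cell markers were read as levels. Alternatives covered quantile normalization, centring, dim genes, the choice of probe, the prior, which arrays entered a fit, the replicate block and leaving out each array.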

Additional observations from a re-analysis of the deposited data

Results flagged for a closer look

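In 2 of the 30 gene and group sets of 4 R1E arrays, 1 array stood far from the other 3. For Egr1 after UV it was replicate 2, at 7.25, whose gap to the nearest array was 0.906 of the whole range, and for Egr2 after UV it was replicate 3, at 4.54, at 0.881. Chance alone gives such a flag in about 5% of sets.

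The effect of adriamycin differed between R1E and p53-/- cells for Ier2 (-0.77 on the log2 scale, R1E minus p53-/-), Ier3 (-1.09), Klf10 (-0.74), Klf6 (-0.69) and Zfp36 (-0.63), by the test of the difference itself. In these values the genotype cannot be told apart from the line, the array set or the tool.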

How the results depend on the processing

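The counts of the 10 genes called higher or lower stayed within 1.5 times their values under every alternative run. With single arrays left out, 3 genes were higher and 3 to 4 lower after UV, 3 higher and 5 lower after adriamycin, 5 to 9 higher after UV than after adriamycin, and 4 to 5 lower for the difference between the lines. The single calls that changed are given with the results above, apart from those of genes dropped as dim. Egr2, Egr3 and Ier5 read below the array median on every R1E array and were not tested there with dim genes left out. In that setting 2 genes instead of 3 were higher after UV. The R1E calls of Ier5, and that of Egr2 between the agents, were therefore not examined in it. Values that changed sign belonged to genes that were not called. In p53-/- cells Egr2 came to -0.0076 with quantile normalization and -0.00020 with centring, and Klf6 to -0.07 with centring. For the difference between the lines quantile normalization gave -0.0050 for Egr1 and -0.03 for Egr3, and centring gave -0.02 for Egr3, -0.02 for Ier5 and -0.0056 for Nr4a1. With single arrays left out Egr3 after adriamycin in R1E ranged from -0.09 to 0.04, and Zfp36 between the agents from -0.04 to 0.04. In p53-/- cells the ranges were -0.08 to 0.0033 for Egr3, -0.16 to 0.05 for Ier2, -0.37 to 0.11 for Ier3, -0.0049 to 0.24 for Zfp36 and -0.14 to 0.17 for Klf6. For the difference between the lines they were -0.05 to 0.08 for Egr3, -0.24 to 0.22 for Ier5 and -0.09 to 0.13 for Nr4a1. The cause was not tested.

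Over all genes, the 5110 lower after adriamycin in R1E became 9640 with centring, and the 2065 higher for the difference became 1260 with dim genes left out, where fewer genes were tested. With a shared spread the difference was called higher for 2571 and lower for 3233 genes, and with smaller degrees of freedom, an alternative chosen after seeing the data, for 1935 and 2001; the same 5 of the 10 genes were called in both. In p53-/- cells the 3 genes higher and 16 lower became 0 and 5 with a replicate block, and 1 was higher with centring. In R1E the replicate numbers showed no pairing of the arrays. The correlations of same-numbered deviations lay between -0.142 and 0.163 there, and the best match had the same number in 6 of 24 cases. Some differently numbered R1E arrays were further from 0, such as adriamycin 3 with mock 1 (0.391) and with mock 4 (-0.423). The reason was not tested. In p53-/- cells the same-numbered correlations lay between -0.103 and 0.191, and the best match had the same number in 4 of 6 cases. With 3 arrays per group this cannot decide whether the p53-/- numbers pair the arrays. With the replicate block, the only call among the 10 genes that changed was that of Egr1 between UV and adriamycin (limma adjusted p = 0.0497). What could be called in p53-/- cells was limited by a median standard error of 0.140, against 0.063 in R1E.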
